A study of Mus musculus with 8 samples.

Results

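Glycolysis was followed through 10 listed enzymes, from the hexokinase that traps glucose to the dehydrogenase that makes lactate: Hk2, Gpi1, Pfkl, Aldoa, Gapdh, Pgk1, Pgam1, Eno1, Pkm and Ldha. They were chosen by name, through the Ensembl identifiers of the deposited table, and 8 of the 10 were found among its 9307 genes. Pgk1 and Pgam1 are not analysed here. The data are ribosome profiling and matched input RNA from mouse embryonic fibroblasts, connective tissue cells of the embryo, that express SV40 T antigen, a viral protein used to immortalize cultures. Empty vector (EV) cells and cells given METTL1-Wt together with WDR4 (OE) were both made by stable transduction with pBabe vectors, and both were kept under puromycin and G418, which were left out during expansion and lysis. METTL1 is the enzyme, and WDR4 its partner, that methylates a guanosine of certain tRNAs. Each genotype gave 2 input libraries and 2 libraries of ribosome-protected fragments (RPF), the pieces of mRNA that ribosomes shield from nuclease, after cycloheximide had halted translation. The labels speak of stable clones, do not give the species of the METTL1 and WDR4 sequences, and do not say whether replicates were separate cultures, so p-values reflect library-to-library spread that may be purely technical, and a difference between clones cannot be told apart from an effect of the transgenes.

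Glycolysis splits glucose into pyruvate in the cytosol and yields ATP and NADH. Hexokinase and phosphofructokinase commit sugar to the pathway, glyceraldehyde-3-phosphate dehydrogenase makes the NADH, and pyruvate kinase makes ATP in the last step. Lactate dehydrogenase then turns pyruvate into lactate and restores NAD, and dividing cultured cells such as fibroblasts send much of their glucose along this route. Many of these genes have processed pseudogenes, copies of their mRNA inserted elsewhere in the genome, from which short reads may not be separable.

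Values are size-factor-normalized reads, 1 read being worth 0.549 to 1.61 depending on the library. Reads in listed genes numbered 294367 to 371520 per input library and 526699 to 864147 per RPF library. Mettl1 ranged from 14.01 to 16.69 in EV input and from 15.98 to 33.72 in OE input and did not pass the test (log2 change 0.58, adjusted p = 0.482, limma), and Wdr4 did not either (0.58, adjusted p = 0.454), so EV and OE are used here as the labels give them. The higher Mettl1 values came from OE replicate 1. In RPF Mettl1 had 25.71 and 25.60 in EV, 40.06 in OE replicate 1 and 22.45 in OE replicate 2. Wdr4 had 15.16 and 15.06 in EV RPF and 25.79 and 24.24 in OE RPF. Neither passed in RPF (adjusted p = 0.881 and 0.454, limma). Of 14 fibroblast markers 11 were in the table, with summed values of 5251 to 5487 in EV input and 6048 to 6259 in OE input, while Fap, Lum and Thy1 are not analysed here. Of the 11, Col1a1, a chain of type I collagen, was called higher in OE cells in mRNA (log2 change 0.46, adjusted p = 0.00042) and in RPF (0.39, adjusted p = 0.0038), and no other marker was called in either. Of 21 markers of other cell types 5 were in the table, with summed values of 31.8 to 41.1 in EV input and 49.3 to 49.8 in OE input, and none of the 5 passed the test. The part of cell composition in the results below was not tested, and in bulk RNA fewer cells of a type and less RNA per cell cannot be told apart.

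The enzymes differed in how much of their coding sequence occurs in no other annotated gene. The part of this in their read counts was not tested. An RPF is about as long as a 28-base subsequence, so the share of such subsequences found in no other annotated mouse gene was counted on the transcript with the longest coding sequence. Hk2 and Pfkl were unique over 100% of their coding sequence, Aldoa over 53.2%, Gpi1 over 40.2%, Ldha over 38.1% and Pkm over 16.9%. Eno1 was unique over 9.47% and Gapdh over 5.70%, against a median of 100% and a first quartile of 94.4% over 9302 genes. On the principal Gapdh transcript none of the 975 coding subsequences was unique. Gapdh shared coding subsequences with 352 other genes, 340 of them pseudogenes, and a single processed pseudogene on chromosome 7 held 94.3% of them. Ldha shared with 31 genes, Eno1 and Pkm with 16 each, Aldoa with 13, Gpi1 with 2, and Hk2 and Pfkl with none. Pkm shared 15.3% of its exon bases with an overlapping gene on its own strand, and Gpi1 11.5% with one on the other strand. Pgk1 and Pgam1, the pair not analysed here, had 0% unique coding sequence.

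Coding stretches of 75 bases, read from the annotated principal transcripts, are shown because they carry this contrast, with capitals marking bases inside a 28-base subsequence that no other annotated gene holds. The Hk2 start is wholly unique, the Gapdh and Eno1 starts hold no unique subsequence, and bases 1186 to 1260 of the Eno1 coding sequence, its most unique stretch of this length, hold 64 such bases. The Ldha stretch covers coding bases 253 to 327.
Hk2 start: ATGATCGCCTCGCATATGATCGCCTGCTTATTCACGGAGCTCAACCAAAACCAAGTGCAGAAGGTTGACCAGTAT
Gapdh start: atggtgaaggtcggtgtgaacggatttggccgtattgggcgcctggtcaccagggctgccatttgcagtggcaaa
Eno1 start: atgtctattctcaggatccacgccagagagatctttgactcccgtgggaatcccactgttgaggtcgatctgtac
Eno1 most unique stretch: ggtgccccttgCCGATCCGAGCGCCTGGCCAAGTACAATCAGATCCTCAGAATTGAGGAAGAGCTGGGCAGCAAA
Ldha most unique stretch: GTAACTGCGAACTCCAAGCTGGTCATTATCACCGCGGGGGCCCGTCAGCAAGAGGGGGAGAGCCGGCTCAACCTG

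In EV cells 6 of the 8 enzymes lay higher in RPF than in input in both libraries, and Gapdh and Eno1 lay lower, where 35.2% and 34% of all genes were so placed. The test of RPF against input called 5 enzymes higher, where 18.5% of all genes were, and 2 lower, where 19.1% of all genes were. Both kinds of library share 1 set of size factors, so a difference is relative to the typical gene. Hk2, which phosphorylates glucose, had the largest estimated difference above input of the 8 (log2 difference 1.27, SE 0.31, adjusted p = 0.00192, limma). That estimate rests on 18 EV input reads, and its 95% interval (0.63 to 1.91) takes in the value of Aldoa. In OE cells the ratio of RPF to input was 1.42 for Hk2, below the 1.83 of Aldoa. Aldoa, the aldolase that splits fructose-1,6-bisphosphate, came next in EV cells (0.94, SE 0.13, adjusted p = 6.76e-07). Ldha (0.74), Pkm (0.68) and Pfkl (0.66) were also called higher. Gpi1, the isomerase that makes fructose-6-phosphate, had a difference of 0.42 and missed the threshold (adjusted p = 0.0577), with 0.0471 when the replicate number was a block and 0.0425 in edgeR.

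Gapdh, the dehydrogenase of the middle of the pathway, was nearly without RPF. It had 197.67 and 202.50 normalized reads in EV input and 170.21 and 185.05 in OE input, but 0.66 and 0.75 in EV RPF and 0.55 and 2.69 in OE RPF. The RPF values stand for 1, 1, 1 and 3 reads. Over the 2 EV libraries 2 RPF reads stood against 313 input reads, a depth-corrected ratio of input to RPF of 285 (exact 95% interval 78.1 to 2361, counting error only). Of the 9307 genes 8 had a lower RPF to input ratio. Every gene of the table has at least 1 read in each library, so Gapdh RPF lies near that floor. Genes without reads in a library are missing from this rank, and the interval does not allow for that filter. In OE cells 4 RPF reads stood against 245, a ratio of 131 (50.5 to 484). With so few fragments neither the RPF comparison of Gapdh (log2 change 0.49, SE 0.36, adjusted p = 0.717) nor its translational efficiency can be read as a level of translation. How the counting treated reads with several matches is not given in the sources used here, and the part of the copies in this low RPF level was not tested.

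Eno1, the enolase that makes phosphoenolpyruvate, had an RPF to input ratio of 0.294 in EV cells and 0.456 in OE cells, where the median gene had 1.01 in both. Its log2 difference in EV cells was -1.75 (SE 0.16, adjusted p = 8.55e-10). Pkm, with 16.9% unique coding sequence, had a ratio of 1.61. Over the whole table the median log2 RPF to input difference was -0.47 for the 255 genes with 1 to 20% unique coding sequence and 0.02 for the 6899 genes with at least 95%, while the 72 genes under 1% had a median of -0.08 and a first quartile of -2.46. The untranslated regions of the principal transcripts, where input reads can also fall, were 59.6% unique for Gapdh, 47.8% for Eno1 and 100% for Pkm and Ldha, above the coding share of each, while for Hk2 and Pfkl they were slightly below it (99.1% and 96.7%). On the Gapdh transcript with the longest coding sequence, which gave the coding share of 5.70%, the untranslated regions were only 13.8% unique.

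**Figure D1:**
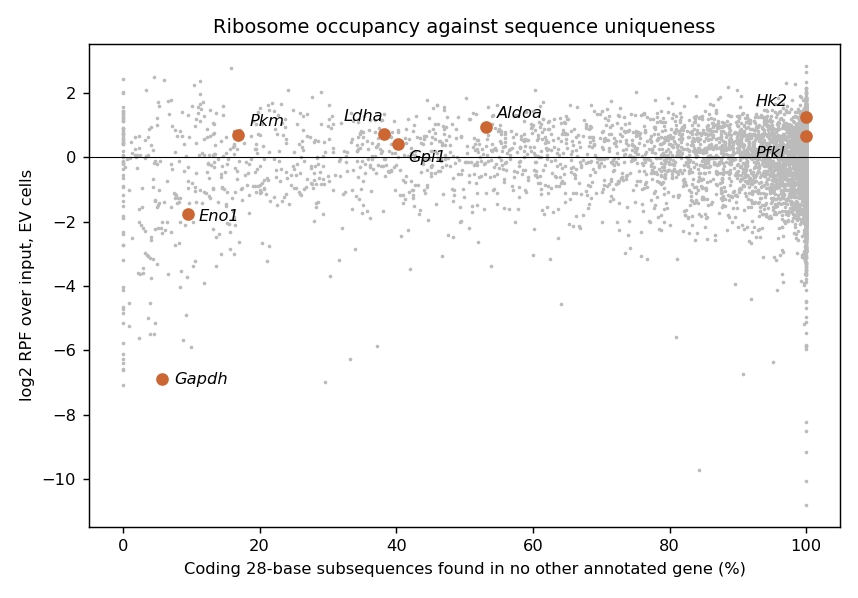
Log2 RPF over input in EV cells (y axis) against the percentage of coding 28-base subsequences that occur in a single annotated gene (x axis), with all genes in grey and the 8 enzymes in orange. Gapdh lies at -6.88 and Eno1 at -1.75, while the other 6 enzymes, between 16.9% and 100% unique, lie above 0.

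Divided by transcript length, the input levels of EV cells put Gapdh (157 ± 2.7 per kb, SD, n = 2) and Pkm (153 ± 6.2) on top, and these neighbours did not differ beyond their spread. Eno1 (101 ± 2.6), Aldoa (90.0 ± 4.2) and Ldha (89.9 ± 12.9) came next, and Aldoa and Ldha were not separable. Gpi1 (29.5 ± 2.4) and Pfkl (25.4 ± 1.3) followed, and Hk2 was far lower at 2.09 ± 0.67. On its longest annotated transcript Gapdh would fall from rank 1 to rank 5 of the 8. RPF levels per kb of coding sequence in EV cells ran from 376 ± 15.0 for Pkm, 250 ± 10.9 for Ldha and 214 ± 4.6 for Aldoa, through Gpi1 (67.8 ± 5.8) and Pfkl (64.2 ± 3.5), which did not differ beyond their spread, to Eno1 (46.3 ± 1.0), Hk2 (10.4 ± 0.79) and Gapdh (0.654 ± 0.061).

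The question of the overexpression was then put to mRNA. Input RNA showed 1 enzyme past the test, Ldha, which rose in OE cells, where 1.01% of all genes were called higher and 0.494% lower. Both OE libraries lay above both EV libraries for Hk2, Eno1, Pkm and Ldha, 4 of 8 where 21.2% of all genes did so, and below them for Gapdh, 1 of 8 where 19.4% did. The median log2 change of the 8 enzymes was 0.13, against 0.00 over all genes. Together the 8 enzymes took 0.271 and 0.269% of the reads in EV input and 0.294 and 0.300% in OE input, so that the OE libraries were above the EV libraries in sum as well.

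Ldha, which makes lactate from pyruvate, had 179.70 and 146.46 normalized reads in EV input and 231.23 and 238.31 in OE input. The groups do not overlap, and the EV libraries are the more scattered. Ldha mRNA rose with a log2 change of 0.53 (SE 0.13, adjusted p = 0.0311, limma), a fold change of 1.44. The call rests on the fit that shares its spread across 8 libraries: the adjusted p was 0.0847 in edgeR, 0.346 in DESeq2, 0.128 in voom and 0.0780 with only the 4 input libraries. Leaving out EV input replicate 2, OE input replicate 1 or OE input replicate 2 also ended it (log2 change 0.38, 0.55 and 0.51, adjusted p = 0.306, 0.106 and 0.101), and without EV input replicate 1 the change was 0.68 (adjusted p = 0.0356).

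Hk2 had the largest log2 change of the 8 mRNAs, on few reads. Its values were 14.12 and 8.92 in EV input and 25.69 and 18.64 in OE input, which do not overlap. These values stand for 18 EV reads and 30 OE reads (depth-corrected ratio 1.90, exact 95% counting interval 1.02 to 3.61), and the log2 change of 0.90 (SE 0.31) did not pass (adjusted p = 0.162, limma).

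Among the later steps, Pkm, the pyruvate kinase, had 361.98 and 383.36 in EV input and 403.04 and 428.69 in OE input (log2 change 0.16, SE 0.09, adjusted p = 0.486). Eno1 had 201.53 and 208.87 against 223.20 and 231.65 (0.15, SE 0.16, adjusted p = 0.755). Neither pair of groups overlaps, and neither difference passed the test. Among the upper steps Aldoa, Gpi1 and Pfkl overlapped between groups, with log2 changes of 0.11 for Aldoa and -0.02 for both Gpi1 and Pfkl, the liver-type phosphofructokinase. In Gapdh the change was -0.17 (SE 0.36, adjusted p = 0.880), and its SE comes from a spread estimated together with 4 RPF libraries of 1 to 3 reads.

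**Figure D2:**
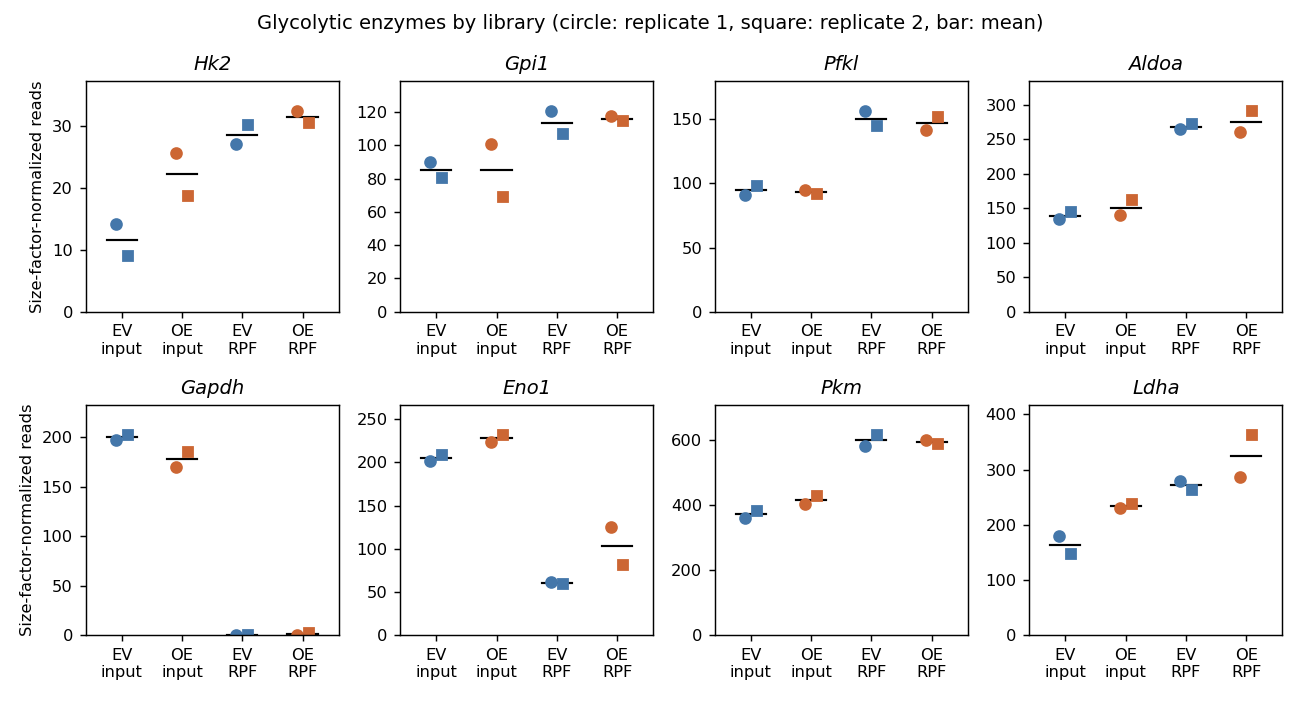
Size-factor-normalized reads (y axis, linear, from 0) of the 8 enzymes in each library, by group on the x axis, with EV in blue, OE in orange, circles for replicate 1, squares for replicate 2 and a bar at the mean. Gapdh RPF values lie at 0.55 to 2.69, Ldha input is higher in both OE libraries, and the 2 OE RPF values of Eno1 (125.67 and 81.71) lie apart from each other and above EV.

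Ribosome-protected fragments showed 1 enzyme past the test, Eno1, which rose in OE cells, where 0.72% of all genes were called higher and 0.236% lower. OE libraries lay above EV libraries for Hk2, Eno1 and Ldha, 3 of 8 where 21.9% of all genes did so, and for none of the 8 did they lie below, where 22.2% of all genes did. The median log2 change of the 8 was 0.09, against 0.00 over all genes. Their summed share of RPF reads was 0.320 and 0.321% in EV and 0.330 and 0.343% in OE. Without Gapdh and Eno1 that share was 0.307 and 0.308% in EV and 0.304 and 0.325% in OE, which overlap.

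Eno1 had 61.32 and 59.47 normalized RPF reads in EV and 125.67 and 81.71 in OE. The OE libraries do not overlap with EV, and OE replicate 1 is well above OE replicate 2. The rise in RPF was 0.74 in log2 units (SE 0.16, adjusted p = 0.0171, limma), on 172 EV and 320 OE reads (depth-corrected ratio 1.80, exact 95% counting interval 1.49 to 2.18). EdgeR (adjusted p = 0.00094), DESeq2 (0.0310) and voom (0.00250) also called it. Without OE RPF replicate 1 the log2 change was 0.43 (adjusted p = 0.386), without EV RPF replicate 1 it was 0.76 (adjusted p = 0.149), without EV RPF replicate 2 it was 0.72 (adjusted p = 0.274), and without OE RPF replicate 2 it was 1.05 (adjusted p = 0.000444). With 9.47% of its coding subsequences unique, the division of reads between Eno1 and the 16 other genes sharing coding subsequences with it is uncertain. Of these 16 genes 15 are pseudogenes, and 1 of the 16 is in the table. The part of this uncertainty in the change was not tested. Among genes with a mean value of at least 20, 4 of the 150 genes with 1 to 20% unique coding sequence (2.67%) were called higher in RPF, Eno1 included. Of the 3774 genes with at least 95%, 39 were (1.03%), and the difference between these shares was not tested.

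Ldha had 279.54 and 262.74 normalized RPF reads in EV and 285.91 and 362.77 in OE, which do not overlap. That log2 change was 0.25 (SE 0.13) and did not pass (adjusted p = 0.529). Hk2 had 27.03 and 30.11 against 32.38 and 30.53, just separated (0.14, SE 0.31, adjusted p = 0.926). Pkm, with 582.82 and 616.58 in EV and 602.00 and 587.26 in OE, overlapped, and so did Aldoa, Gpi1 and Pfkl, with log2 changes of -0.01, 0.04, 0.03 and -0.04. For Pkm, the most abundant of the 8 in RPF, the 95% interval of that log2 change was -0.20 to 0.18.

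Translational efficiency (TE), the RPF change minus the mRNA change, passed the test for none of the 8 enzymes. Nor did any of the 9307 genes pass it in limma (0%), where 508 genes (5.46%) had an unadjusted p under 0.05, edgeR called 1 gene, and DESeq2 and voom called 0. Eno1 had a log2 TE change of 0.59 (SE 0.23, adjusted p = 0.899). In the authors' deposited table its TE change was 0.65 with an unadjusted p of 0.0382. Hk2 had -0.77 (SE 0.44, adjusted p = 0.916), from log2 changes of 0.90 in mRNA and 0.14 in RPF, and Ldha had -0.28 (SE 0.18, adjusted p = 0.916). The authors' deposited table gives -0.79 for Hk2 and -0.28 for Ldha, with unadjusted p of 0.247 and 0.287. Pkm (-0.17), Aldoa (-0.08), Gpi1 (0.05) and Pfkl (-0.02) stayed near 0, and the TE value of Gapdh (0.66, SE 0.51) rests on 6 RPF reads.

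**Figure D3:**
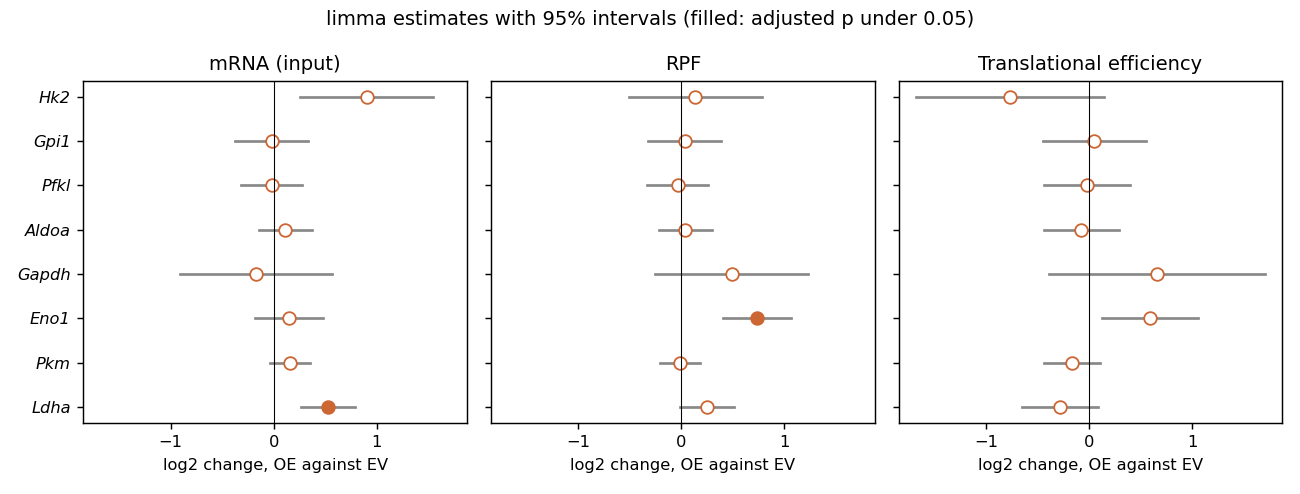
Log2 change of OE against EV (x axis) with its 95% interval for each enzyme in pathway order (y axis), in mRNA, RPF and translational efficiency. Filled points passed an adjusted p of 0.05: Ldha in mRNA (0.53) and Eno1 in RPF (0.74), and none in translational efficiency.

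Codon content was described because METTL1 modifies the arginine tRNA that reads AGA. Pfkl, Aldoa, Pkm and Ldha had 0 AGA codons, and Gapdh had 1 of 359 codons in its longest coding sequence and 0 of 333 in its principal one. Gpi1 had 1 of 558 codons, Eno1 2 of 434 and Hk2 8 of 917. The median AGA share of the 8 enzymes was 0.0896%, against 1.06% over 9302 genes and 0.901% over the 465 genes with the highest mean values. None of the 8 had a share above the median of all genes, the highest being Hk2 at 0.872%. A shorter annotated Ldha coding sequence has 3 AGA codons, so its count depends on the isoform.

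Promoters of the enzymes were described without a test. The same was done for Slc16a1, the monocarboxylate transporter that carries lactate out of the cell. It was the only gene outside the listed enzymes so described, and its mRNA was called higher in OE cells. Uncalled genes of its pathway list were not searched, so its matches cannot be set against theirs. The motif searched was ACGTG, a form of the core of the element that hypoxia-inducible factors bind. It was searched on both strands (CACGT on the other), so that CACGTG counts in both. It was found in at least 1 RefSeq promoter (250 bases before to 50 after a start, build GRCm38.p6) of 5 of the 8 enzymes, Hk2, Aldoa, Gapdh, Pkm and Ldha. Counted per promoter, 6 of the 14 enzyme promoters (42.9%) held it, against 26.3% of promoters of genes in the table and 19.6% of all 32851 promoters. The Aldoa promoters at chr7:126799205-126799504 and chr7:126799129-126799428 overlap and share a single CACGT, so the 6 are not separate sites. The Ldha promoter at chr7:46845554-46845853 (plus strand) held 2 ACGTG and 3 CACGT, and both ACGTG lay within a CACGTG. By the same counting 0.183% of all promoters held 5 or more matches. That cutoff was taken from the Ldha count itself, so the share is no test of Ldha. A second Ldha promoter held none. The Slc16a1 promoter at chr3:104638414-104638713 (plus strand) held 2 ACGTG and 1 CACGT. Capitals mark the matches in both sequences below. Which factors bind the motif, and its part in the mRNA rises of Ldha and Slc16a1, were not tested.
Ldha promoter: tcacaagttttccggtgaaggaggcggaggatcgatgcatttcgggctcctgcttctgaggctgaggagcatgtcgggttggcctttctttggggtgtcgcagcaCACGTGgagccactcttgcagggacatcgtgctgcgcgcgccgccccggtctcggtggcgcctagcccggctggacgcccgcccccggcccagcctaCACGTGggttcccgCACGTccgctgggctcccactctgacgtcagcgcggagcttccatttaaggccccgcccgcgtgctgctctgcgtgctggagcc
Slc16a1 promoter: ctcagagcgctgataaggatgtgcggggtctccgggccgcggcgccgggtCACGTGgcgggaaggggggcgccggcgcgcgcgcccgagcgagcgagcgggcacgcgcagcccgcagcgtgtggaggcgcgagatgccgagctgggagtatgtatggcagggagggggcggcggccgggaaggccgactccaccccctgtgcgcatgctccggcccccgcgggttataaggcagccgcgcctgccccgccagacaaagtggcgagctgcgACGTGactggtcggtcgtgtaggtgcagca

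Slc16a1 was the single call among 9 measured genes of glucose entry, lactate export and flux control in mRNA, where 1.01% of all genes were called higher and 0.494% lower. It had 51.34 and 50.94 normalized reads in EV input and 85.11 and 81.21 in OE input, which do not overlap. The rise in mRNA was 0.69 in log2 units (SE 0.16, adjusted p = 0.0190, limma), while its RPF change of 0.26 did not pass (adjusted p = 0.608). The mRNA call was lost in edgeR (adjusted p = 0.115), DESeq2 (0.390), voom (0.186) and with 4 libraries (0.122), and without EV input replicate 1 (0.0801), EV input replicate 2 (0.0982) or OE input replicate 1 (0.0966), at log2 changes of 0.66 to 0.72 over the libraries left out. Its partner Bsg, which brings the transporter to the membrane, had an mRNA change of -0.19 (adjusted p = 0.419).

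Of the 11 other glycolytic isozymes and steps in the table none passed in mRNA or RPF. Tpi1, which interconverts the triose phosphates, had the smallest p in RPF, with 307.89 and 281.56 in EV and 205.24 and 243.35 in OE, and a log2 change of -0.40 (SE 0.13, adjusted p = 0.170). Pfkp, the platelet-type phosphofructokinase, had 21.10 and 22.59 against 40.61 and 40.41 (0.86, SE 0.28, adjusted p = 0.179). Both sets of libraries are apart, in opposite directions, and neither difference passed.

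Neighbouring pathways were read in the same way. None of 13 genes of pyruvate entry into mitochondria, 10 of the pentose phosphate branch or 20 of the tricarboxylic acid cycle passed in mRNA or RPF, with median log2 changes between -0.10 and -0.03. In the tricarboxylic acid cycle OE libraries lay below EV in RPF for 10 of 20 genes and above for 1, where 22.2% and 21.9% of all genes did so.

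Among 23 hypoxia-inducible factors and targets outside glycolysis 1 gene was called in RPF, where 0.72% of all genes were called higher and 0.236% lower. The median log2 change of the 23 was 0.08 in mRNA and 0.23 in RPF. Hif1a, the oxygen-regulated factor that drives many glycolytic genes, had 139.77 and 126.48 normalized RPF reads in EV and 226.09 and 197.55 in OE. The groups do not overlap, and its RPF level rose by 0.66 in log2 units (SE 0.14, adjusted p = 0.00895, limma). The Hif1a call was lost without EV RPF replicate 1 (adjusted p = 0.0926), EV RPF replicate 2 (0.313) or OE RPF replicate 1 (0.160), and its mRNA change of 0.44 did not pass (adjusted p = 0.0963).

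**Figure D4:**
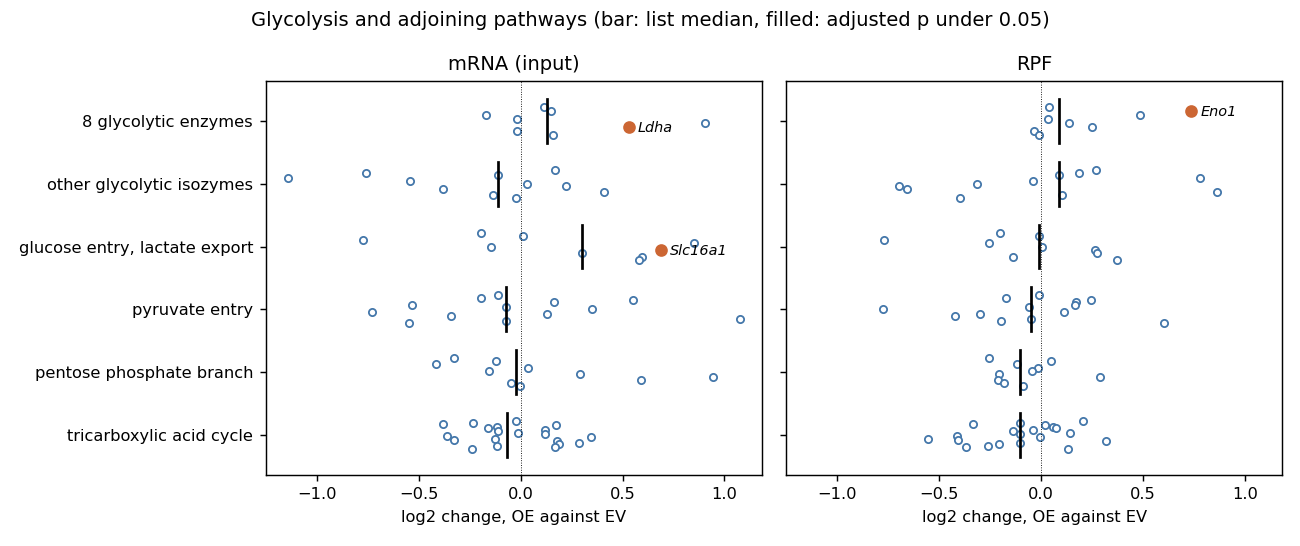
Log2 change of OE against EV (x axis) in mRNA and RPF for each measured gene of the 8 enzymes and of 5 pathway lists (y axis), with a bar at each list's median. Filled, named points passed an adjusted p of 0.05: Ldha and Slc16a1 in mRNA, and Eno1 in RPF.

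The 8 enzymes did not share 1 profile over the 8 libraries. Against their mean profile of centred log2 values Gapdh (Pearson r = 0.93) and Eno1 (0.92) ran alike, and the other 6 ran the opposite way (-0.91 to -0.48), the RPF drop of Gapdh being the largest term in the mean. The 5 other genes most like that mean profile were Alkbh5 (0.99), Sephs2 (0.99), Fndc3a (0.98), Dlg1 (0.98) and Peak1 (0.98). These correlations describe 8 libraries that share genotypes and library types.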

How the data were processed

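The authors aligned reads with Bowtie to mm10, per the submitters' processing notes. Not given in the sources used here are the counting program, its strand setting, how multi-mapping reads were handled, and versions. The authors deposited 1 signal value per gene and library (size-factor-normalized reads), a log2 fold change of translational efficiency and an unadjusted p-value. Each value was a whole multiple of the library's smallest step (tolerance 1e-06), so whole reads were recovered for 100% of values. Count tests on them served as alternatives: edgeR 4.0.16 called 57 genes in mRNA and 301 in RPF, DESeq2 1.42.0 called 21 and 38. All listed genes have a read in each library, so genes without reads in a library are not analysed here.

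The main fit was limma 3.58.1 (R 4.3.3) on log2(value + 1), with 4 group means over the 8 libraries, a trended prior variance and mean values of at least 1, two-sided, Benjamini-Hochberg over 9307 genes, threshold 0.05; since the table held normalized values, the branch written for counts was not used. Fold changes on this scale understate changes of low genes. The fit was tested on simulated data. Exact intervals are Clopper-Pearson and cover counting error only. With 2 libraries against 2, an exact permutation test cannot go below 0.333. Chi-square per degree of freedom between replicates was 1.09 to 1.86 (OE RPF the highest), and no libraries were merged. Same-numbered libraries did not deviate together (correlations -0.07 to 0.05 over 5114 genes), so numbers were not taken as pairs.

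Identifiers were matched to GENCODE mouse release M21 without version suffix (9306 of 9307); sequence features come from it, with 28-base subsequences compared among annotated transcripts only. Named genes are the listed enzymes, each pathway list's calls or up to 3 of its smallest p-values, and the 5 genes of mean value 20 or more most like the enzymes' mean profile; symbols of the Gm or Rik kind were counted, not named. A few results of the pathway lists are not reported. The enzymes and lists were chosen with earlier results of these data known. The APPRIS principal transcripts were added after seeing the data.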

Additional observations from a re-analysis of the deposited data

How the results depend on the processing

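Under the settings that left out no library, none of the values compared with the reported ones changed direction. Tests of the recovered reads moved the counts of genes called. In mRNA 140 calls became 57 in edgeR, 21 in DESeq2, 49 in voom and 47 with only the 4 libraries compared, and the number of enzymes called fell from 1 to 0 in each of these 4. In RPF 89 calls became 301, 38, 319 and 174, and Eno1 was called in all 4. TE calls went from 0 to 1 in edgeR and to 7 with a replicate block of genotype and number, and EV RPF against input from 3505 to 2257 in DESeq2. The causes were not tested. Leaving out 1 library gave 50 to 156 mRNA calls, 16 to 70 RPF calls, 0 to 5 TE calls and 2400 to 2905 calls of EV RPF against input, and 0 to 1 enzymes called in mRNA and in RPF; with 1 sample left, it is assumed to vary like the other groups. The sign of small changes then depended on the library: mRNA of Gpi1 (-0.29 to 0.25) and Pfkl (-0.071 to 0.033), RPF of Aldoa (-0.042 to 0.12), Gapdh (-0.14 to 1.11), Gpi1 (-0.054 to 0.12), Pfkl (-0.092 to 0.020) and Pkm (-0.052 to 0.029), and TE of Aldoa (-0.18 to 0.032), Gpi1 (-0.22 to 0.32) and Pfkl (-0.073 to 0.039). The median TE change of the 8 enzymes ranged from -0.11 to 0.02, and their median mRNA, RPF and EV RPF against input changes from 0.09 to 0.19, 0.03 to 0.13 and 0.63 to 0.68.

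With the replicate number as a block, although the numbers share no deviation, 137 genes were called in mRNA, 88 in RPF, 0 in TE and 3497 in EV RPF against input; among the genes named it moved the call of Gpi1 (RPF against input, gained). Size factors within a library type were not run for RPF against input, nor the fit of 4 libraries for TE. Depth limits Hk2 (18 EV input reads) and Gapdh (6 RPF reads), where a change could not be read.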
